A study of Mus musculus with 14 samples.

Results

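Cytosolic ribosomal protein genes were followed through long-term hematopoietic stem cells (LT-HSCs) of aged mice. Members were the protein-coding genes whose symbol starts with Rpl or Rps, without the Rps6k kinases, Rps19bp1, rows marked -ps and the paralogs whose names end in l or l1. There were 78 members among 55450 gene identifiers (21951 protein-coding), 46 of the large and 32 of the small subunit, and all 78 passed the filter on low counts. The rule used symbols and gene types only, although the family was chosen with earlier results of these data known.

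RNA was sequenced from 14 libraries of 5000 sorted cells each. All cells came from, or descended from, female C57BL/6 donors older than 24 months. They carried Sca-1, c-Kit and CD150 and lacked CD48 and the lineage markers. The Selp low (n = 4) and Selp high (n = 4) groups were sorted straight from marrow by surface P-selectin, from 4 mice. The Selp low-derived (n = 3) and Selp high-derived (n = 3) groups were CD45.2+ donor LT-HSCs sorted from lethally irradiated recipients, aged 10 to 16 weeks when they received 1000 cells of either kind, 16 weeks earlier. They were not sorted again by P-selectin. The irradiated young host and the CD45.2 gate go with the later stage and cannot be told apart from it. All 10 LT-HSC markers checked were present in every library, the lowest being Hoxb5 at 9.91 CPM (counts scaled to the TMM-normalised library size), although their summed level was lower after transplantation. Whether the later libraries are from different recipients is not stated, so p-values measure only how far these libraries spread.

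The cytosolic ribosome is built in the nucleolus from ribosomal RNA, made by RNA polymerase I and III, and from ribosomal proteins imported from the cytoplasm. Ribosomal protein mRNAs of mammals begin with a C followed by a run of pyrimidines, the 5′ terminal oligopyrimidine (TOP) motif, through which mTORC1 and LARP1 control their translation. Blood stem cells are known to keep protein synthesis low, and loss of a single copy of several of these genes causes Diamond-Blackfan anaemia, a failure of red cell production.

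Promoter windows of RefSeq (GRCm38.p6) were found for 58 of the 78 members, each from 250 bases before to 50 bases after an annotated start. A run of at least 5 pyrimidines beginning with a C within 10 bases of the start was present in 35 of 58 members (60.3%), in 44.9% of mitochondrial ribosomal protein genes and in 34.4% of all genes in the table. The letters CCGGAAG, searched on both strands, were present in 24 of 58 members (41.4%), in 37.7% of mitochondrial ribosomal protein genes and in 9.93% of all genes. AAGATGGC was found in 8.62% of members, 17.4% of mitochondrial ribosomal protein genes and 3.19% of all genes, and TATAAA in 10.3%, 7.25% and 15.7%. These are matches of letters in annotated windows, not measured start sites. The windows below, from 60 bases before to 20 bases after the start, belong to the only member that edgeR called with all 14 libraries and no block (Rpl15), to a pair of near-copies whose values differ (Rps27 and Rps27rt), to a member with almost no counts (Rps10) and to a component of the 5S particle without a run (Rpl11). Capitals mark the pyrimidine run.
Rpl15: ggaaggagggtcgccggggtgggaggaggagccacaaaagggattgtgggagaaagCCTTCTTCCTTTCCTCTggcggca
Rps27: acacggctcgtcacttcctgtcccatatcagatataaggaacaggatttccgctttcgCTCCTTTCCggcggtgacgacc
Rps27rt: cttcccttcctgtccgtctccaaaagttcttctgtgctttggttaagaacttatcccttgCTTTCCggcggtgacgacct
Rps10: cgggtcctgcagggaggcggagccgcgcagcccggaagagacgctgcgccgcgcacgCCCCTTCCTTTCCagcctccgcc
Rpl11: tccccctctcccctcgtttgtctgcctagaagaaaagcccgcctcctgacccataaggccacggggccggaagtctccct
The Rpl15 window lies at chr14:18270967-18271046 on the minus strand, that of Rps27 at chr3:90213629-90213708 (minus), that of Rps27rt at chr9:114982720-114982799 (minus), that of Rps10 at chr17:27635225-27635304 (minus) and that of Rpl11 at chr4:136053374-136053453 (minus). The run of Rpl15 was 17 bases long and began 4 bases before the start. Rps27 and Rps27rt share 19 bases there, ctttccggcggtgacgacc, which begin at base 2 after the start of Rps27 and at base 1 of Rps27rt.

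Ribosomal protein genes held 1.26 to 2.39% of the reads assigned to genes, which numbered 22374794 to 38216775 per library. The share was 2.31, 1.54, 1.29 and 1.26% in Selp low replicates 1 to 4 and 2.06, 1.46, 1.37 and 1.63% in Selp high replicates 1 to 4. It was 1.63, 2.39 and 1.45% in the Selp low-derived and 1.46, 1.26 and 1.38% in the Selp high-derived libraries. The group means were 1.60% ± 0.49 (SD, n = 4), 1.63% ± 0.31 (n = 4), 1.82% ± 0.50 (n = 3) and 1.37% ± 0.10 (n = 3), and all 4 groups overlap. The small to large subunit ratio of reads stayed between 0.759 and 0.835.

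3 libraries stood apart from their groups in these genes: replicate 1 of both pre-transplant groups and replicate 2 of the Selp low-derived group. Of the 78 members, 66 had their highest pre-transplant value in Selp low replicate 1, 75 their highest post-transplant value in Selp low-derived replicate 2, and 68 their lowest post-transplant value in Selp high-derived replicate 2. Reads that mapped to several places are listed apart in the files and enter no gene's count. They made up 9.93 to 13.4% of reads, and the 5 libraries with the highest share of ribosomal protein reads were also the 5 with the highest multimapping share. Summed CPM of 10 neutrophil markers was 12272 in Selp low-derived replicate 2, 14559 in Selp low replicate 4 and 19711 in Selp high replicate 4, against 284 to 5954 in the other libraries. The summed CPM of 8 erythroid markers was also highest in these libraries (1809, 2311 and 1871, against 119 to 1047). Summed LT-HSC markers were at 4368 to 5309 CPM before and 3080 to 4256 CPM after transplantation, without overlap, and 7 megakaryocyte and platelet markers at 1853 to 2124 and 1198 to 1780. The sums of 7 multipotent progenitor markers (497 to 1000 before and 1030 to 1486 after) and of 6 T and NK cell markers (9 to 50 and 57 to 109) were higher after transplantation, again without overlap. Before transplantation the multipotent progenitor sum was 788 to 1000 CPM in Selp low and 497 to 659 CPM in Selp high libraries, without overlap. The other marker sums overlapped between these groups. No gene of these lists was at 0 in all libraries. The part of multimapping and of these markers in the ribosomal protein values was not tested. In bulk RNA, fewer cells of a type and less RNA per cell cannot be told apart.

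**Figure D1:**
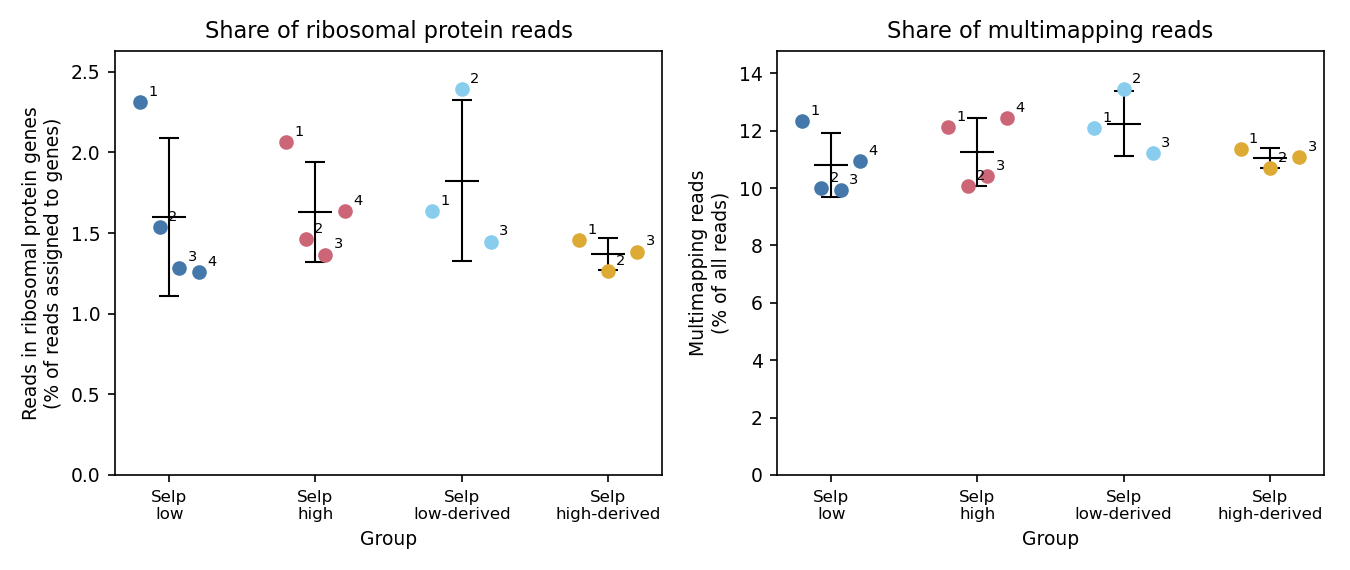
Left, reads in the 78 ribosomal protein genes as % of reads assigned to genes; right, multimapping reads as % of all reads; points are libraries with their replicate number, bars the group mean and SD. The libraries with the largest ribosomal protein share, Selp low-derived replicate 2 (2.39%) and Selp low replicate 1 (2.31%), were also high in multimapping reads (13.4% and 12.3%).

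The members moved together from library to library. The median SD within groups was 0.36 on the log2 CPM scale for the 78 members, against 0.20 for mitochondrial ribosomal protein genes and 0.18 for 3598 other genes of similar level. The mean over members in each library carried 78.02% of their within-group variance, and the median SD fell to 0.13 once it was taken out. Members differed in how steeply they followed this common level. The slope of each gene's log2 CPM on the member mean was 1.504 for Rps12, a protein of the small-subunit head, 1.502 for Rpl23a, at the tunnel exit, and 1.44 for Rps29. It was 0.41 for Rpl4, which lines the peptide tunnel, 0.58 for Rpl15 and 0.65 for the stalk base protein Rplp0. Rps10, with 5 to 25 reads per library, had a slope of -0.23.

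**Figure D2:**
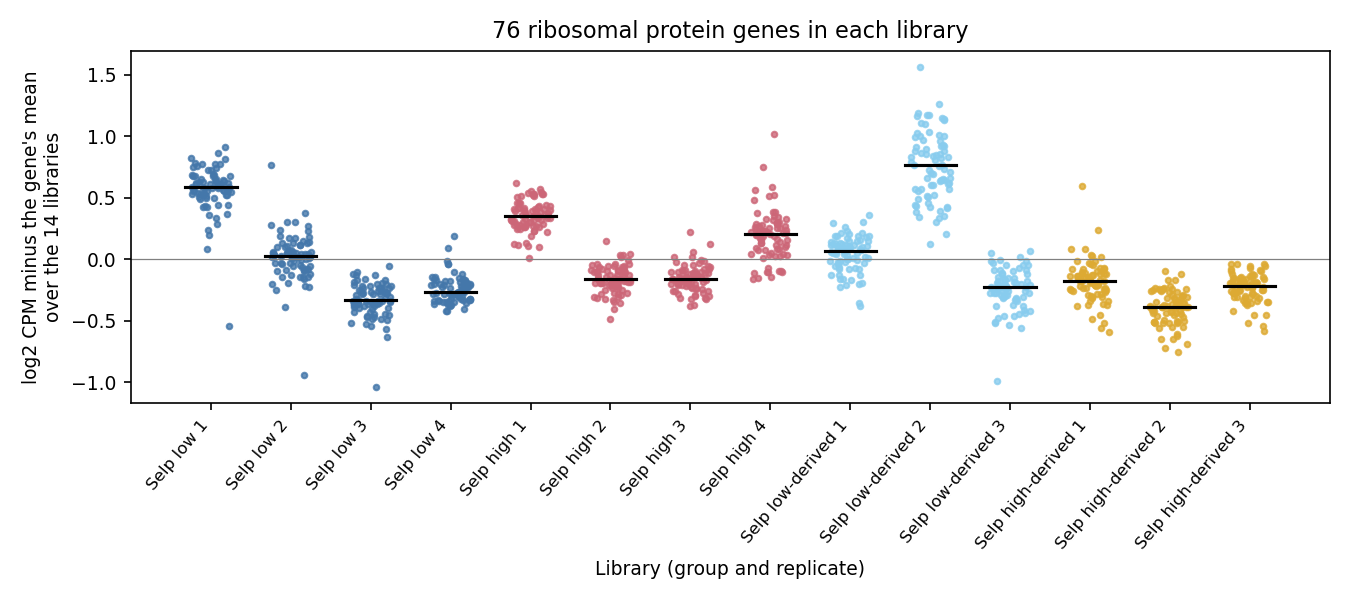
Each point is one of the 76 members with more than 20 reads in every library, as its log2 CPM minus its own mean over the 14 libraries; black lines are the median of a library. All 76 are above their own mean in Selp low-derived replicate 2, 75 of 76 in Selp low replicate 1 (the exception is Rps27rt), and all 76 are below it in Selp high-derived replicate 2.

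Per kilobase of transcript, among the highest mean levels over the 14 libraries were those of Rps14 (981 CPM per kilobase), Rpl32 (949.6), Rps9 (849), Rplp0 (794) and Rpl4 (792). The lowest were those of Rpl24 (0.396), Rps10 (0.872), Rpl13a (5.30), Rpl23a (10.2), Rps27rt (24.2) and Rpl5 (31.7), with a median of 163 over the 78 genes. The rows at the bottom share sequence or exons with other annotated genes, as do rows higher up. Of the members, 77 had at least one stretch of 50 bases that also occurs in another gene's transcripts, and in 28 members at least 50% of such stretches did. Rpl24 shares 47.0% of its exon bases with the read-through transcript Gm28037, Rps10 shares 28.7% with RPS10-NUDT3 and Gm15420, and Rpl13a shares 35.4% with Gm45713 and small RNA genes. Gm28037, RPS10-NUDT3 and Gm45713 were at 0 counts in all 14 libraries. Rpl24 had 3 to 15 reads and Rps10 had 5 to 25, while the pseudogene row Rps10-ps2 had 135 to 496. Rpl23a shares 62.3% of its exon bases with Tlcd1 and a small nucleolar RNA gene and had 61 to 344 reads. Rpl35 shares 66.2% of its exon bases and 95.1% of its 50-base stretches, and stood at 72.1 CPM per kilobase. Across the 78 genes, log2 CPM per kilobase had a Pearson r of -0.52 (Spearman rho -0.25) with the share of exon bases overlapped and -0.30 (rho -0.35) with the share of 50-base stretches found elsewhere, as descriptions over genes of one family measured in the same libraries. The changes of Rpl24 and Rps10 given below rest on these few reads.

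**Figure D3:**
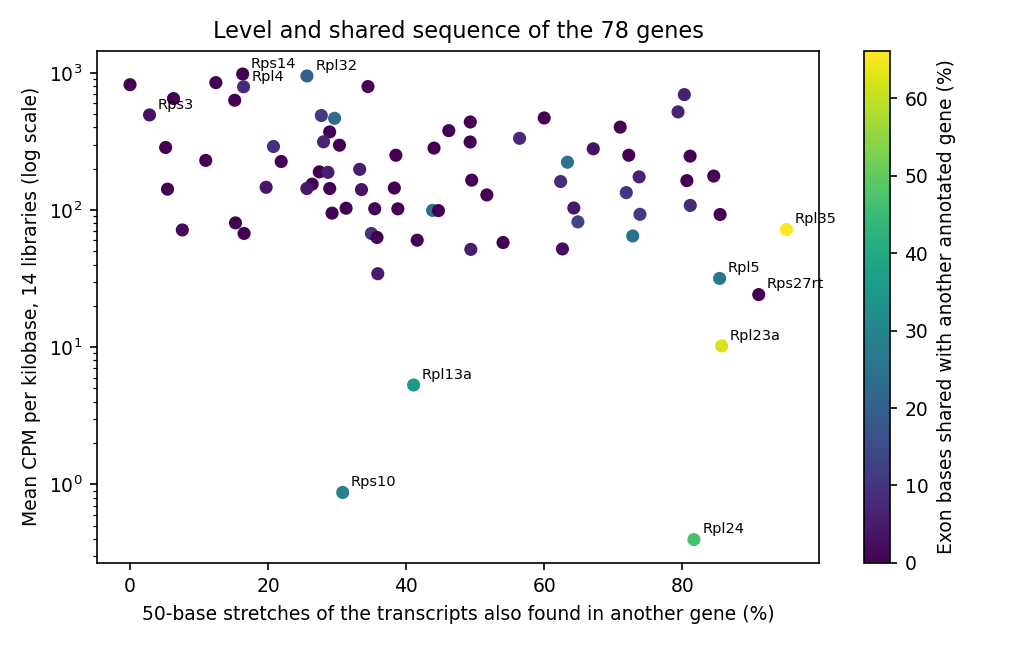
Mean CPM per kilobase of each of the 78 genes (log axis) against the share of its 50-base stretches found in another gene; colour is the share of exon bases overlapped by another annotated gene. Rpl24 (0.396) and Rps10 (0.872) lie far below the median of 163, and Rps14 stands at 981.

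Before transplantation, no ribosomal protein gene passed edgeR's quasi-likelihood test between Selp high and Selp low LT-HSCs. Of 16878 genes tested, 0.0% were called at an adjusted p under 0.05. Among members, 0 of 78 were called and 1 had an unadjusted p under 0.05 (all genes: 5.11%). DESeq2 called 11 genes, none of them a member, and limma voom called 0. The median log2 change (high minus low) was 0.01 (all genes: -0.02), with 45 members higher (47.3% of all genes were) and 33 lower (52.7%). In no member did the groups lie apart, against 1.52% of all genes higher and 1.56% lower. The median ran from -0.10 without Selp low replicate 3 to 0.24 without Selp low replicate 1. Same-numbered libraries were taken to share a mouse because their deviations correlated. Within these 4 pairs the median was -0.24, -0.17, 0.15 and 0.43, so the pairs did not share a direction. The 95% interval of the change lay within 1.5-fold either way for 36 members and within 2-fold for 74.

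Rps27rt, a near-copy of Rps27, had the largest value. It was at 5.70, 4.33, 4.05 and 9.48 CPM in Selp low and 10.9, 6.65, 9.67 and 16.8 CPM in Selp high replicates 1 to 4. The groups overlap, although Selp high was the higher in all 4 same-numbered pairs. The log2 change was 0.90 ± 0.36 (SE; edgeR adjusted p = 0.957), and 91.1% of its 50-base stretches also occur in other genes, most of all in Rps27. Rps10 had 0.39 ± 0.52, Rpl15, one of the Diamond-Blackfan anaemia genes, 0.23 ± 0.16 (edgeR adjusted p = 0.957) and Rpl30 0.20 ± 0.29. At the low end were Rpl24 (-0.29 ± 0.60), Rpl38 (-0.25 ± 0.26), a protein known for its part in translating Hox mRNAs, Rpl27 (-0.18 ± 0.19) and the stalk protein Rplp2 (-0.17 ± 0.25). Rpl38, Rpl27 and Rplp2 turned to 0.02, 0.03 and 0.07 without Selp low replicate 1, Rps10 to -0.03 without Selp high replicate 2, and Rpl30 to -0.03 without both libraries numbered 4.

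After transplantation, ribosomal protein transcripts were lower in Selp high-derived than in Selp low-derived libraries in 76 of 78 members (48.8% of all genes were lower and 51.1% higher), but no member passed the test and much of the size came from a single library. Again 0.0% of the 16878 genes were called by edgeR. Of the members 0 were called and 20 had an unadjusted p under 0.05 (all genes: 4.53%). DESeq2 called 24 genes, none of them a member, and limma voom called 0. The median log2 change (high-derived minus low-derived) was -0.50, against 0.01 over all genes and -0.11 over 77 mitochondrial ribosomal protein genes. Without Selp low-derived replicate 2 it was -0.18 and 0 members had an unadjusted p under 0.05. Without Selp low-derived replicate 3 it was -0.69. In 20 of 78 members (25.6%) every Selp high-derived library was below every Selp low-derived one, against 5.55% of all genes. In no member was the order reversed, against 4.79% of all genes. Between the same groups, summed markers of myeloid progenitors (6 genes, 537 to 689 CPM low-derived and 233 to 345 high-derived) and B cells (9 genes, 89 to 127 and 69 to 82) were also lower in every Selp high-derived library, and LT-HSC markers were higher (3080 to 3782 and 3831 to 4256). Their part in the difference was not tested.

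The values of single members show the same uneven spread. Rpl23, a large-subunit protein, was at 92.3, 206 and 82.1 CPM in the Selp low-derived and 74.1, 67.0 and 75.5 CPM in the Selp high-derived libraries. The groups do not overlap, and replicate 2 alone is far above the rest. The log2 change was -0.81 ± 0.31 (edgeR adjusted p = 0.979), or -0.27 without that library. Rps29, a zinc-binding protein of the small-subunit head, was at 24.5, 66.4 and 15.7 against 17.4, 14.7 and 17.3 CPM. The groups overlap, and its log2 change of -1.11 ± 0.42 was -0.29 without replicate 2. Rps12 (-0.91 ± 0.39), Rpl23a (-0.90 ± 0.47), Rpl37a (-0.88 ± 0.36) and Rpl30 (-0.85 ± 0.34) had the next largest values, all with an edgeR adjusted p of 0.979. Rpl23a turned to 0.03 without replicate 2. Rpl4 was closest to 0, at -0.14 ± 0.16, with 1361.5, 1314 and 1169.5 CPM in the low-derived and 1230.1, 1075 and 1174 CPM in the high-derived libraries. It turned to 0.21 when libraries were scaled to their summed ribosomal protein counts. The members above 0 were Rpl24 (0.26 ± 0.68) and Rps10 (0.17 ± 0.61). Rpl24 turned to -0.26 without Selp high-derived replicate 1, and Rps10 to -0.42 with pseudogene rows added. Rps27rt had -0.24 ± 0.42, and 0.20 without Selp low-derived replicate 2. Under the scaling to ribosomal protein counts the median of the members was -0.07 and that of all genes moved to 0.35.

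Both subunits and every role group had a median below 0. Large-subunit members had a median of -0.48 (45 of 46 lower) and small-subunit members one of -0.52 (31 of 32 lower). Rpl5 and Rpl11, which with 5S RNA form the particle that can bind MDM2, were at 75.9 ± 26.3 and 60.7 ± 26.6 CPM (SD, n = 3) in Selp low-derived libraries and at 55.1 ± 3.21 and 40.0 ± 1.32 CPM in Selp high-derived ones. The 4 genes of the stalk, which recruits elongation factors, had a median of -0.55, with Rplp0 at 1122 ± 125 against 937 ± 31.9 CPM. The 9 members at the peptide tunnel had a median of -0.44, the 15 of the small-subunit head -0.51 and the 16 of its body and platform -0.53. The 19 Diamond-Blackfan anaemia genes had a median of -0.51. Rps19, the one most often mutated in that disease, was at 413 ± 106 against 345 ± 21.0 CPM. Rps6, the substrate of the S6 kinases, was at 166 ± 37.6 against 136 ± 8.56 CPM, Rpl3 at 401 ± 115 against 300.2 ± 18.2 and Rpl10, which completes the large subunit, at 153 ± 42.9 against 114 ± 9.26. Rpsa, also known as the laminin receptor, was at 356 ± 56.4 against 247 ± 5.79, the X-linked Rps4x at 295 ± 88.3 against 208 ± 8.99, the ubiquitin fusion Rps27a at 129 ± 71.7 against 77.8 ± 8.15 and Rpl22 at 153 ± 31.0 against 116 ± 11.9. In each of these genes the SD was smaller in the Selp high-derived libraries. Each also had its highest post-transplant value in Selp low-derived replicate 2. Rpl11, for example, was at 51.6, 90.7 and 39.9 CPM in the Selp low-derived libraries. Without that library the median of all members was -0.18.

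Short transcripts outside the family also had a median below 0. Among other protein-coding genes of up to 600 bases the median was -0.23 (216 genes), against -0.51 for the 29 members of that size. In the middle 50% of member lengths it was -0.14 for 775 other genes and -0.48 for 38 members. Without Selp low-derived replicate 2 these medians were -0.05 and -0.16 up to 600 bases and -0.05 and -0.17 in the middle 50%. Members split evenly into those with the least, an intermediate and the most shared sequence had medians of -0.47, -0.57 and -0.49. The part of length in the difference was not tested further.

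The change of the Selp difference between the stages was tested as an interaction. Of the 16878 genes 0.0% were called by edgeR, with 0 of 78 members called, 5 at an unadjusted p under 0.05 (all genes: 5.18%), and no member among the 9 genes called by DESeq2 or the 0 called by limma voom. The median was -0.54 with 77 of 78 below 0 (49.1% of all genes were below and 50.9% above), and -0.19 without Selp low-derived replicate 2. The largest values were those of Rps27rt (-1.14 ± 0.55), Rpl30 (-1.05 ± 0.44), Rpl23 (-0.99 ± 0.40) and Rps28 (-0.98 ± 0.48), all with an edgeR adjusted p of 0.879. At the other end stood Rpl24 (0.55 ± 0.90), Rpl4 (-0.18 ± 0.22), Rplp0 (-0.19 ± 0.28) and Rpl27 (-0.19 ± 0.28). Rpl4, Rplp0 and Rpl27 turned to 0.21, 0.20 and 0.22 under scaling to ribosomal protein counts.

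**Figure D4:**
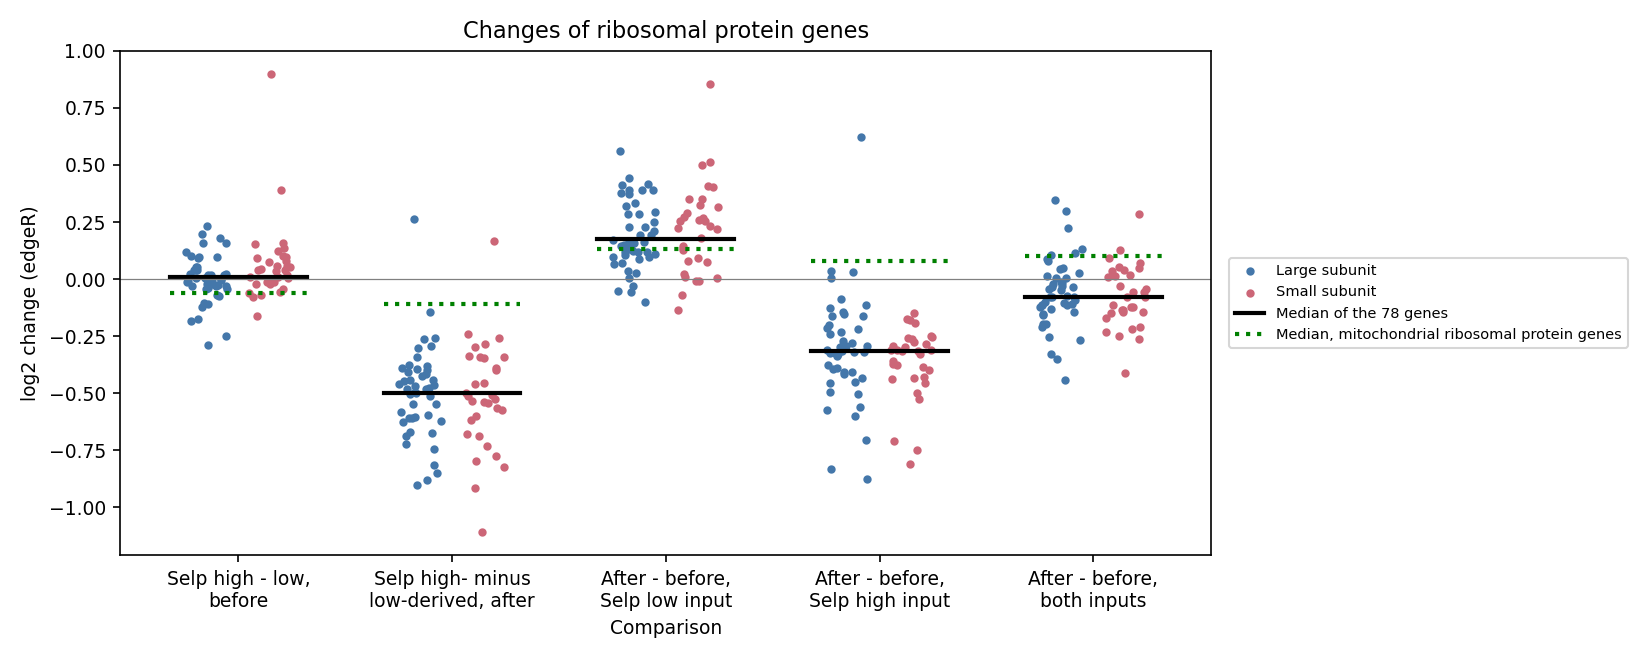
Log2 changes (edgeR, vertical axis) of the 46 large-subunit and 32 small-subunit genes in 5 comparisons, with the median of the 78 genes (black) and of 77 mitochondrial ribosomal protein genes (green dots). The members' median is -0.50 between the post-transplant groups (-0.18 without Selp low-derived replicate 2), 0.18 after against before for Selp low input (-0.13 without that library) and -0.31 for Selp high input.

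Over the mean of both inputs, no ribosomal protein gene passed the stage test without a replicate block and with all libraries in, while many other genes did. For Selp low input alone Rpl15 passed, as given below. With both inputs given equal weight, edgeR called 27.4% of 16878 genes (12.9% higher and 14.6% lower after transplantation). Among members 0 of 78 were called and 1 had an unadjusted p under 0.05 (all genes: 39.0%), and DESeq2 and limma voom called 0. The median log2 change was -0.08, with 53 members lower (50.9% of all genes were) and 25 higher (49.1%). It was -0.23, with 73 lower, without Selp low-derived replicate 2 and -0.26 without that library and Selp high-derived replicate 1. It was 0.04 without Selp low replicate 1, 0.01 without Selp low-derived replicate 3 and 0.01 under scaling to ribosomal protein counts. In no member did all post-transplant libraries lie outside the pre-transplant range, against 4.28% of all genes above it and 5.47% below it. The 95% interval of the change lay within 1.5-fold either way for 58 members and within 2-fold for 75. Of 77 mitochondrial ribosomal protein genes 8 were called, all higher.

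The count of 0 changed with single libraries and with the block. Without Selp low-derived replicate 2, edgeR called 6 members (7.69%, against 26.2% of all genes in that fit), all lower after transplantation: Rps27 (-0.73), Rpl23a (-0.91), Rpl30 (-0.64), Rpl37a (-0.60), Rpl37 (-0.50) and Rps28 (-0.55). Rps27, a zinc-binding protein of the small subunit, was at 215, 149, 102 and 109.8 CPM in Selp low and 176, 126, 124 and 153 CPM in Selp high libraries. After transplantation it was at 94.2, 246 and 89.1 CPM in Selp low-derived and 83.2, 74.4 and 89.8 CPM in Selp high-derived libraries. Every post-transplant library except Selp low-derived replicate 2 was below every pre-transplant one, while that library was the highest of all 14. With it, the log2 change was -0.41 ± 0.23 (edgeR adjusted p = 0.208). Rpl23a (-0.44 ± 0.31) and Rpl30 (-0.35 ± 0.22) were also among the lowest with all libraries in, and Rpl24 (0.35 ± 0.45), Rps27rt (0.29 ± 0.27) and Rpl29 (0.23 ± 0.15) were among the highest. Rps27rt turned to -0.10 without Selp low-derived replicate 2 and Selp high-derived replicate 1. Without Selp low replicate 1, edgeR called 2 members (2.56%, against 25.7% of all genes), Rpl29 (0.36) and Rpl15 (0.36), both higher. With all libraries and a replicate block it called Rpl15 (0.34, adjusted p = 0.0407), against 32.1% of all genes.

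For Selp high input, 74 of 78 members were lower after transplantation (51.7% of all genes were, and 48.3% were higher). The background was 15.2% of genes called (7.63% higher and 7.62% lower), and edgeR called 0 members, with 4 at an unadjusted p under 0.05 (all genes: 28.9%). DESeq2 called 2 (Rps27 and Rpl30), against 19.7% of all genes, and limma voom 0. The median log2 change was -0.31, against 0.08 for mitochondrial ribosomal protein genes. In 24 of 78 members (30.8%) all Selp high-derived libraries lay below all Selp high ones, against 14.7% of all genes, and in none above them, against 14.5%. Rpl30, a protein of the large subunit, was at 45.4, 31.4, 36.04 and 58.2 CPM in Selp high and 24.7, 21.5 and 23.8 CPM in Selp high-derived libraries, with no overlap (-0.87 ± 0.32, edgeR adjusted p = 0.0845). Rpl23a (-0.83 ± 0.44), Rps27 (-0.81 ± 0.33) and Rps12 (-0.75 ± 0.37) were next. Without Selp low-derived replicate 2, edgeR called Rps27 and Rpl30, against 16.2% of all genes. The 4 members above 0 were Rpl24 (0.62 ± 0.64), Rpl27 (0.04 ± 0.20), Rpl15 (0.03 ± 0.17) and Rpl29 (0.01 ± 0.22). The signs of Rpl27, Rpl15 and Rpl29 changed when single libraries were left out. When only these 2 groups entered the fit, edgeR called 8 of 77 members, or 10.4%, against 16.7% of all genes in that fit, all lower: Rpl37a, Rps27, Rpl9, Rps12, Rpl23a, Rpl23, Rpl30 and Rps28.

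For Selp low input, 70 of 78 members were higher after transplantation (50% of all genes were) and the median was 0.18, but it was -0.13, with 63 lower, without Selp low-derived replicate 2. In all, 11.5% of genes were called (5.01% higher and 6.46% lower) and 1 of 78 members, Rpl15, which rose, with 2 members at an unadjusted p under 0.05 (all genes: 27.2%). In no member did the groups lie apart, against 10.2% of all genes higher and 11.9% lower. Rpl15 was at 119.7, 86.1, 78.9 and 100.4 CPM in Selp low and 140, 172 and 115 CPM in Selp low-derived libraries. The groups overlap at Selp low replicate 1. The log2 change was 0.56 ± 0.17 (edgeR adjusted p = 0.0494; 1.48-fold). The call also stood in DESeq2 (adjusted p = 0.0214) and limma voom (0.0444). It was lost with DESeq2's size factors in edgeR (0.0527), without the expression filter (0.0562) and without Selp low-derived replicate 2 (0.194). It stood in 3 of 14 fits that left out 1 library, and its adjusted p ran from 0.0189 to 0.393 over all alternatives. In the fit with replicate number as a block it stood at 0.62 with an edgeR adjusted p of 0.0189. That block gave equal numbers at both stages the same term, and post-transplant numbers are not known to name a mouse. With the block Rps27rt was also called (1.18, adjusted p = 0.0252, against 0.86 ± 0.39 and 0.171 without it). Without a block, edgeR called Rps27rt when Selp low replicate 4 was left out (1.18, adjusted p = 0.0498). It did so without both pre-transplant libraries numbered 4 as well (adjusted p = 0.0321), and Rpl15 was called in neither fit. For Selp high input, Rpl15 was at 124, 88.9, 115 and 126 CPM before and 133, 106 and 109 CPM after. Over both inputs its log2 change was 0.30 ± 0.12 (edgeR adjusted p = 0.0864), or 0.34 (0.0407) with the block. Rps29 had 0.51 ± 0.39 for Selp low input (edgeR adjusted p = 0.428), turning to -0.31 without Selp low-derived replicate 2. The lowest values were those of Rps10 (-0.14 ± 0.57), Rpl13 (-0.10 ± 0.25) and Rps14 (-0.07 ± 0.24), and all 3 changed sign when single libraries were left out.

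The protein-coding paralogs were counted apart. Rpl22l1, the paralog of Rpl22, was at 9.996, 26.3 and 6.91 CPM in Selp low-derived and 7.96, 7.02 and 8.86 CPM in Selp high-derived libraries, a log2 change of -0.86 ± 0.37 (edgeR adjusted p = 0.979). Its change over the stages was -0.18 ± 0.24 with all libraries and -0.57 (edgeR adjusted p = 0.0175) without Selp low-derived replicate 2. Rps27l, a paralog of Rps27 known as a p53 target, was at 98.6 ± 14.8 and 101.4 ± 22.4 CPM (SD, n = 4) before and 132 ± 32.9 and 114 ± 8.26 CPM (n = 3) after transplantation, in Selp low and Selp high order. Its stage change was 0.30 ± 0.14 (edgeR adjusted p = 0.126). Rpl7l1, a nucleolar factor of large-subunit assembly, had 0.18 ± 0.09 (edgeR adjusted p = 0.136), and was called without Selp low-derived replicate 2 (0.24, adjusted p = 0.0384). Rpl36al had 0.37 ± 0.16 (adjusted p = 0.0975) and overlaps Gm49383, which was at 0 in all libraries. Rpl10l, Rpl39l and Rpl3l, known from testis and muscle, did not pass the filter and had at most 0.317 CPM in any library.

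Some ribosomal proteins carry other names. Fau, whose product is cut into a ubiquitin-like part and a small-subunit protein, was at 47.2 ± 22.7 CPM in Selp low-derived and 30.1 ± 2.43 in Selp high-derived libraries. Rack1, the signalling scaffold of the small-subunit head, was at 748 ± 103 and 572 ± 13.2 CPM. Neither gene was called in any comparison.

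The genes that build and control ribosomes were read in the stage comparison, where 27.4% of genes were called. The LT-HSC, megakaryocyte, multipotent progenitor and T and NK cell marker sums given above moved with the same comparison, and their part in these changes was not tested. Of 38 biogenesis factors 8 rose and 2 fell (all genes: 12.9% and 14.6%), with a median of 0.18. Only the share called in either direction together was near that of all genes. Utp20 (0.74 ± 0.16, edgeR adjusted p = 0.00341) and Heatr1 (0.67 ± 0.13), of the early small-subunit processome, rose, as did Rrp12, Nolc1, Wdr12, Bop1, Nop56 and Dkc1, while Sbds and Nop14 fell. Ncl, the most abundant of these, was at 757 ± 54.3 CPM in Selp low and 777 ± 32.1 in Selp high, and at 779 ± 98.3 and 772 ± 13.5 CPM after transplantation. Of 14 genes of RNA polymerase I and its factors 3 rose and 0 fell by edgeR (all genes: 12.9% and 14.6%). An unadjusted p under 0.05 was found for 5 (all genes: 39.0%). Polr1a, the largest subunit, changed by 0.44 ± 0.11 (edgeR adjusted p = 0.00675), and Polr1e and Twistnb were the others. Of 7 ribosomal protein chaperones tested, Nap1l1, which the next list also holds, rose and Tsr2, the chaperone of Rps26, fell by 0.23 ± 0.08.

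**Figure D5:**
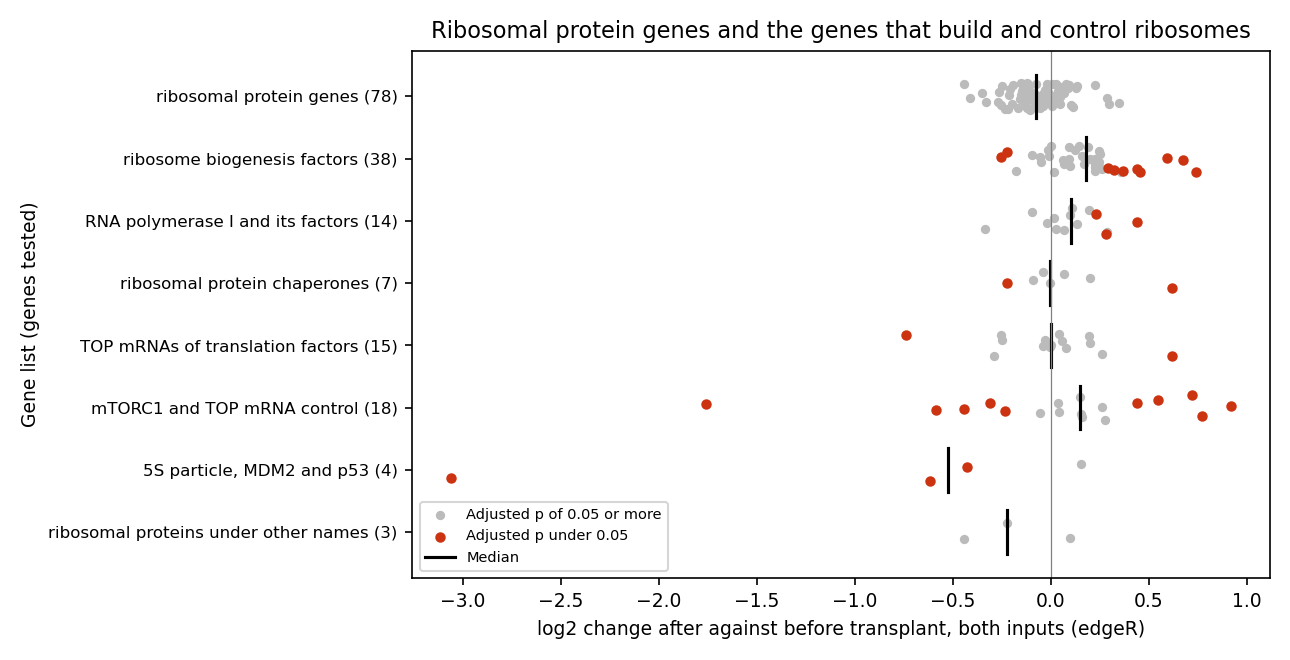
Log2 change after against before transplantation (edgeR, both inputs) of each gene in 8 lists, with the number tested in brackets; red points were called, grey points were not, and black lines are medians. None of the 78 ribosomal protein genes is red with Selp low-derived replicate 2 included. Of the biogenesis factors 10 of 38 are, a share near the 27.4% of all genes called.

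A list made for TOP mRNAs of translation factors held 15 genes. Of these Nap1l1, which the chaperone list also holds, rose (0.62 ± 0.12, edgeR adjusted p = 0.00187). Eif4a2, a helicase of translation initiation, fell (-0.74 ± 0.07, edgeR adjusted p = 7.69e-06). Over the stages 7 of the 15 were higher and 8 lower (all genes: 49.1% and 50.9%). The median was -0.27 between the post-transplant groups, with 15 of 15 lower in Selp high-derived libraries (48.8% of all genes were). By edgeR 0 were called and 4 had an unadjusted p under 0.05 (all genes: 4.53%). Of 18 genes of mTORC1 and TOP mRNA control 5 rose and 5 fell over the stages (all genes: 12.9% and 14.6%). Mtor itself (0.92 ± 0.20, edgeR adjusted p = 0.00315), Rptor (0.77 ± 0.15), Eif4ebp2 (0.72 ± 0.11), Tsc2 (0.55 ± 0.14) and Larp1 (0.44 ± 0.10), the protein that binds TOP motifs, rose. Ddit4, a stress-induced inhibitor of mTORC1, fell by 1.76 ± 0.27, from 21.8 ± 6.26 and 18.1 ± 8.95 CPM (SD, n = 4) to 4.88 ± 1.06 and 7.03 ± 2.11 CPM (n = 3). Sesn1, Akt1s1, Eif4ebp1 and Rps6kb1 also fell.

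Of the 4 genes of the MDM2 and p53 response to free Rpl5 and Rpl11, 3 fell over the stages (14.6% of all genes did). Cdkn1a, the cell cycle inhibitor induced by p53, was at 63.3 ± 14.3 and 69.1 ± 56.8 CPM before and 9.21 ± 4.35 and 6.82 ± 1.62 CPM after transplantation (-3.06 ± 0.39, edgeR adjusted p = 7.4e-05). Mdm4 (-0.62 ± 0.16) and Mdm2 (-0.43 ± 0.08) fell as well, and Trp53 had 0.15 ± 0.09 (adjusted p = 0.240). Over the same comparison Rpl5 and Rpl11 had a median of 0.04.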

How the data were processed

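The deposited counts are whole reads per gene. Per the submitters' processing notes, the authors used STAR (2.7.0d), FastQC (0.11.9), Picard (2.23.0) and the GRCm38 build. The annotation release and the counting options were not given in the sources used. Per the labels' protocols, cDNA was made by template switching and libraries by tagmentation. All 55450 identifiers matched GENCODE release M21, used for symbols, exons and transcript sequences. The unstranded counts were used, so overlapping and antisense genes are not separated. Rows naming no gene stayed out of library sizes: unmapped (3.35 to 5.06% of reads), multimapping (9.93 to 13.4%), without a feature (3.37 to 5.13%) and ambiguous (4.20 to 4.79%).

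Counts were fitted with edgeR 4.0.16 (R 4.3.3, TMM factors 0.963 to 1.042, quasi-likelihood test, 4 group means, 10 residual degrees of freedom) after a minimum-count filter of 10 that left 16878 genes. P-values were adjusted (Benjamini-Hochberg) over all of them and called under 0.05. Log2 CPM carries a prior count of 2, and ± is the SE of the fit unless called SD. Intervals use that SE and the residual degrees of freedom. The test was checked on simulated counts. DESeq2 1.42.0, limma 3.58.1 (voom), other filters and scalings, added pseudogene counts, left-out libraries and a replicate block were tried.

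Named members were those called, the 4 with the highest and the 4 with the lowest change in each comparison, the 6 highest and 6 lowest levels, a set of roles, all paralogs, and, of each other list, up to 4 genes by p and 2 by level. Rpl23 and Rpl30 between the post-transplant groups, the stage changes of the paralogs, members listed as called under an alternative, and further genes of the other lists were named after their values were seen. Some genes that the rule names are not reported here. Members and lists were chosen with earlier results of these data known.

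Deviations from group means correlated with r of 0.289 to 0.527 between same-numbered pre-transplant libraries and at most 0.049 between others, so same-numbered libraries were taken to share a mouse. After transplantation r was -0.051 to 0.025, and numbers were not taken as pairs outside the replicate block. That block did use them, pairing the post-transplant groups by number for the Selp differences and the interaction. For the stage comparisons it used a common term per number over both stages.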

Additional observations from a re-analysis of the deposited data

Results flagged for a closer look

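In 9 of 96 groups of 4 values, 1 library lay far from the other 3 relative to the range of the group. The rule flags about 1 in 20 groups of independent values. These groups come from the same libraries and move together, so the count of 9 cannot be weighed against that rate. Selp low replicate 1 was high for Rpl29 (83.2 CPM, others 44.9 to 48.9), Rpl4 (1559, others 1025 to 1107) and Rplp1 (423.7, others 179 to 220.5). Selp high replicate 1, taken to be from the same mouse, was high for the 3 stalk genes Rplp0 (1431, others 942 to 987), Rplp1 (334, others 192.5 to 212) and Rplp2 (158, others 114.5 to 118.5). Rps27l was low in Selp high replicate 2, at 68.2 CPM against 109.6 to 116.9. The near-silent Rpl3l reached 0.277 CPM in Selp low replicate 4 and Rpl10l reached 0.0396 CPM in Selp high replicate 4, where the other 3 libraries had none.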

How the results depend on the processing

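Counts of called members stayed at 0 between the Selp groups at either stage and for the interaction in every alternative, the leave-one-out range being 0 to 0. For the stage comparison over both inputs 0 members were called, against 27.4% of all genes. The leave-one-out range was 0 (without Selp low replicate 2, for example) to 6 (without Selp low-derived replicate 2, against 26.2% of all genes). That count was 1 with the replicate block (all genes: 32.1%) and 4 without Selp low-derived replicate 2 and Selp high-derived replicate 1 together (23.8%). It was 1 without both pre-transplant replicate 1 libraries (23.8%) and 4 without these and Selp low-derived replicate 2 (24.1%). The alternatives that leave out both replicate 1 libraries were chosen after seeing the data. For Selp low input the count of 1 (all genes: 11.5%) had a leave-one-out range of 0 to 2 (without Selp low replicate 1, all genes: 8.21%). It was 0 with DESeq2's size factors, without the filter, scaled to ribosomal protein counts, with only the groups compared and with pseudogene rows added. It was also 0 among the 19 members with no named pseudogene (Rpl15 is not one of them), and without Selp low-derived replicate 2 in either combination. It was 2 with the replicate block (all genes: 19%) and 3 without both pre-transplant replicate 1 libraries (7.79%). For Selp high input the count was 2 with DESeq2 (all genes: 19.7%) and 8 with only the groups compared (16.7%). It was 2 without both replicate 1 libraries and Selp low-derived replicate 2 (14.1%). Its leave-one-out range was 0 to 2 (without Selp low-derived replicate 2, all genes: 16.2%). The replicate block, which used the numbers of the libraries at both stages, changed no other count of called members.

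Leave-one-out medians ran from -0.69 to -0.18 between the post-transplant groups and from -0.76 to -0.19 for the interaction, and were -0.065 and -0.10 when scaled to summed ribosomal protein counts. Of 52 changes of single genes followed through the alternatives, 21 changed sign under at least 1 and 31 under none; the cause was not tested.

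Before transplantation, leave-one-out values ran from -0.42 to 0.017 for Rpl38, -0.32 to 0.033 for Rpl27, -0.30 to 0.074 for Rplp2 and -0.025 to 0.66 for Rps10, and Rpl30 was -0.035 without both libraries numbered 4. Between the post-transplant groups they ran from -1.29 to 0.029 for Rpl23a, -0.26 to 0.62 for Rpl24, -0.023 to 0.32 for Rps10 and -0.57 to 0.20 for Rps27rt. There Rpl23a was 0.014 without Selp low-derived replicate 2 and Selp high-derived replicate 1; without the former and both pre-transplant replicate 1 libraries Rpl23a was 0.028 and Rps27rt 0.20; Rps10 was -0.42 with pseudogene rows added. Scaling to ribosomal protein counts gave 0.21 for Rpl4 and 0.20 for Rps27rt, and for the interaction 0.22 for Rpl27, 0.21 for Rpl4 and 0.20 for Rplp0.

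For Selp low input the leave-one-out values ran from -0.31 to 0.20 for Rpl13, -0.29 to 0.21 for Rps14, -0.31 to 0.073 for Rps10 and -0.31 to 0.87 for Rps29. Without both pre-transplant replicate 1 libraries Rpl13 was 0.19 and Rps14 0.20; Rps29 was -0.17 when Selp low-derived replicate 2 was left out as well, and -0.32 without that library and Selp high-derived replicate 1. Rps10 was 0.083 with pseudogene rows added. For Selp high input they ran from -0.097 to 0.087 for Rpl15, -0.064 to 0.17 for Rpl27 and -0.098 to 0.089 for Rpl29. Without Selp low-derived replicate 2 and Selp high-derived replicate 1, Rpl15 and Rpl29 were both -0.10, and over both inputs Rps27rt was -0.10. Rpl29 was -0.00312 with DESeq2 and -0.00307 with its size factors in edgeR. Depth limits Rpl24 and Rps10 among the members.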

Other observations

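Rows marked -ps, 300 in number, held 0.0217 to 0.0376% of assigned reads, and the paralogs 0.0384 to 0.0555%. Over the 14 libraries, the genes outside the family whose log2 CPM followed the member mean most closely, ranked among 9915 genes whose log2 CPM averaged 3 or more, were the processed pseudogene Gm9794 (Pearson r = 0.954), Ndufa6 (0.947), Fau (0.939), Mir6236 (0.934), Dmac1 (0.926), Zfas1 (0.922), Pfdn5 (0.920), Gm4149 (0.920), Cops9 (0.918) and Ndufv3 (0.918). These are descriptions without a test, and the libraries share their depth and their cell make-up. The ranking left out only symbols that start with Rpl or Rps. Gm9794 shares more 50-base stretches with Rpl23 than any other gene does, and Gm4149 holds that place for Rpl37a. These pseudogenes are therefore not independent of the members. Fau is itself a ribosomal protein gene, Ndufa6 and Ndufv3 encode parts of respiratory complex I, and Zfas1 is a snoRNA host transcript. Among members, r with the member mean had a median of 0.948.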
